A study of Mus musculus with 18 samples.

Results

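Complement components and receptors were followed as 9 genes, chosen by symbol, over all 5 groups of a bulk RNA series on brain macrophages in bone marrow chimaeras. They encode the 3 chains of C1q (C1qa, C1qb, C1qc), the components C4 (C4b) and C3, properdin (Cfp), the anaphylatoxin receptors C3ar1 and C5ar1, and the integrin alpha chain CD11b (Itgam). All 9 were among the 13043 genes of the count table, and all 9 passed the low-count filter that left 10597 genes to test. Recipients were Wild type C57BL6/C mice, lethally irradiated and given marrow of Ms4a3-Cre: R26-TdTomato: Cx3cr1-gfp donors, and cells were sorted 32 weeks later, at most 100000 per library. Ms4a3-Cre is active in granulocyte-monocyte progenitors, so that their progeny keep the tdTomato label.

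Host microglia (4 libraries) carried no colour and had been through the irradiation in place. Monocyte-derived microglia (4 libraries) and monocyte-derived leptomeningeal macrophages (4 libraries) were GFP+ and TdTomato+. HSC-derived microglia (4 libraries) and HSC-derived leptomeningeal macrophages (2 libraries) were GFP+ without TdTomato; HSC stands for haematopoietic stem cell. Every donor-derived group therefore came from marrow with a Cx3cr1-gfp allele, which host cells lack, and origin here means the presence or absence of a reporter. Neither sex nor age is given for these samples, and nothing in the labels says that replicates were separate mice, so the p-values below speak only of the scatter among these libraries, which may be technical.

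Complement is a cascade of plasma and tissue proteins that tags particles for uptake and recruits leukocytes. C1q recognises bound antibody, debris and other surfaces and starts the classical pathway, which cleaves C4 and then C3; properdin stabilises the C3 convertase of the alternative pathway. The released fragments C3a and C5a act through C3aR1 and C5aR1, and CD11b pairs with CD18 to form complement receptor CR3, which binds iC3b on tagged material. Microglia are the main source of C1q in the brain, and C1q, C3 and CR3 are known for their part in the removal of synapses during development.

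Levels are UMI counts scaled to a common library size after TMM, a correction for library composition, and are written as CPM (counts per 1e6). Each UMI stands for 1 captured 3′ end, so that levels of different transcripts carry no length term. Total counts were between 1066281 and 2440234 in host microglia and in both monocyte-derived groups. They were between 264795 and 692884 in HSC-derived microglia, and 154727 and 648266 in HSC-derived leptomeningeal macrophages. A count of 3 corresponded to between 1.05 CPM in the deepest library and 23.1 CPM in the shallowest. The 3 libraries under 400000 counts, HSC-derived microglia 3 and 4 and HSC-derived leptomeningeal 2, stood apart. Their share of ribosomal protein transcripts was 14.1% and 13.4% in the shallow microglia pair against 5.01% to 8.89% in the other microglia libraries, and 19.1% in the shallow leptomeningeal library against 13.7% to 15.2% in the others. The labelled cell types were checked on markers. Over 12 homeostatic microglia genes the summed level was 25573 to 28237 CPM in host microglia, 14109 to 16596 CPM in the donor-derived microglia, and 5923 to 8057 CPM in the leptomeningeal groups. Over 12 border-associated macrophage genes it was 834 to 996 CPM, 4167 to 4834 CPM and 8406 to 15758 CPM in the same order, with Lyve1 and Cd209f at 0 in host microglia only. The homeostatic list holds Cx3cr1, the gene named in the donors' reporter allele. Cx3cr1 was at 3904 CPM in host, 1733 in monocyte-derived and 1407 in HSC-derived microglia. The part of the allele in its level was not tested.

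The 3 C1q genes lie side by side on the minus strand of chromosome 4, within 18.7 kb (GRCm38, GENCODE annotation): C1qb at chr4:136880129-136886187, C1qc at chr4:136889804-136893065 and C1qa at chr4:136895917-136898803. C3 lies at chr17:57203970-57228136 and C4b at chr17:34728380-34743882, both on the minus strand. Cfp lies on the X chromosome at chrX:20925454-20931555 and C3ar1 at chr6:122847138-122856161, again on the minus strand. C5ar1 (chr7:16246743-16259540, minus strand) and Itgam (chr7:128062640-128118491, plus strand) share chromosome 7. C4b has a near-identical neighbour, C4a, and its counts are uncertain where reads could not be told apart between them.

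RefSeq promoter windows (GRCm38.p6, 250 bases before to 50 after the transcription start, written 5′ to 3′ along the gene) were at hand for 7 of the 9 members, all but C1qa and C4b. They were searched on both strands for GAGGAA, a core of PU.1 and other ETS sites, PU.1 being a factor that macrophages depend on. It occurred in 4 of the 7 windows, against 28.3% of 32851 windows of the same length. The MAF motif TGCTGAC (4.7% of all windows) and the interferon response element, with 2 unspecified bases between its GAAA repeats (3.4%), occurred in none of the 7. The C1q chains varied together over the libraries and Itgam fell in both donor-derived microglia groups, so the windows of these genes that hold GAGGAA are printed, with that of Cfp. Capitals mark GAGGAA, or TTCCTC where it lies on the opposite strand. The window of C1qb is chr4:136886151-136886450 (minus), that of C1qc chr4:136892865-136893164 (minus), that of Cfp chrX:20931506-20931805 (minus) and that of Itgam chr7:128062390-128062689 (plus).
C1qb: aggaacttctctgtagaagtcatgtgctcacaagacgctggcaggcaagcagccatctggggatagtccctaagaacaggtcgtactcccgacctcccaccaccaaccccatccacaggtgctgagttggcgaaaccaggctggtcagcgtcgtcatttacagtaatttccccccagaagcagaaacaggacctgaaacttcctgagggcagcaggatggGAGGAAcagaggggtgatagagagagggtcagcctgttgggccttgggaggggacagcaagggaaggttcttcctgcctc
C1qc: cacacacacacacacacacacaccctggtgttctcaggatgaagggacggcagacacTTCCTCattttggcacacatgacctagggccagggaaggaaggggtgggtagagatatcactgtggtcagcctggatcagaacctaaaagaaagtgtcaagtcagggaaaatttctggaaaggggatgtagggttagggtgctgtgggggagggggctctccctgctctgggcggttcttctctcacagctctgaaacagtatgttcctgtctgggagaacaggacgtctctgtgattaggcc
Cfp: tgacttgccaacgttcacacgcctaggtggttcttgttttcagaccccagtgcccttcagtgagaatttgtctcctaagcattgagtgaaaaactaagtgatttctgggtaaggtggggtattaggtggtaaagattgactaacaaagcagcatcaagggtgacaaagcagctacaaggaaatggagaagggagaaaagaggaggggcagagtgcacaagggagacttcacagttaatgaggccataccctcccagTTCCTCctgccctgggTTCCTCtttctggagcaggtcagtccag
Itgam: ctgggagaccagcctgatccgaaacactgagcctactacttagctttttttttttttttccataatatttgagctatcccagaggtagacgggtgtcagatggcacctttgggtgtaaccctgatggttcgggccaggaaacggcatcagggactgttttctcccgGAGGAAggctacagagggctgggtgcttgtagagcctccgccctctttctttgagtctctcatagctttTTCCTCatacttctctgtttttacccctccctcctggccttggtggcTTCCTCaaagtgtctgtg
Counted from the start, with no position 0, C1qb holds the motif at -30 to -25 and C1qc at -193 to -188 on the opposite strand. Cfp holds it at 7 to 12 and 23 to 28, both on the opposite strand. Itgam has 3 copies, at -84 to -79 on its own strand and at -15 to -10 and 33 to 38 on the other. A match is a run of letters only, and no binding was measured.

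C1q transcripts were among the most abundant of all. In host microglia, C1qb was at 18046, 16674, 15661 and 17510 CPM and ranked 2 among all genes in each library. C1qa was at 10753, 11975, 11348 and 10653 CPM, and C1qc at 7457, 7981, 7504 and 7483 CPM. In both groups of donor-derived microglia C1qb ranked 3 in every library, and in the leptomeningeal groups its rank was between 4 and 8. Together the 3 chains made up 4.11% ± 0.0811 (SD, n = 4) of all counts in host microglia, 3.40% ± 0.113 (n = 4) in monocyte-derived and 3.49% ± 0.117 (n = 4) in HSC-derived microglia. The share was 2.50% ± 0.318 (n = 4) in monocyte-derived and 2.41% ± 0.110 (n = 2) in HSC-derived leptomeningeal macrophages. By share of counts, then, no donor-derived library reached the lowest host library (4.03%), and the highest leptomeningeal library (2.79%) lay below the lowest microglia library (3.26%). As group means, C1qa supplied 31.3% to 36.2% of C1q transcripts, C1qb 43.3% to 47.4% and C1qc 19.6% to 23.9%.

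**Figure D1:**
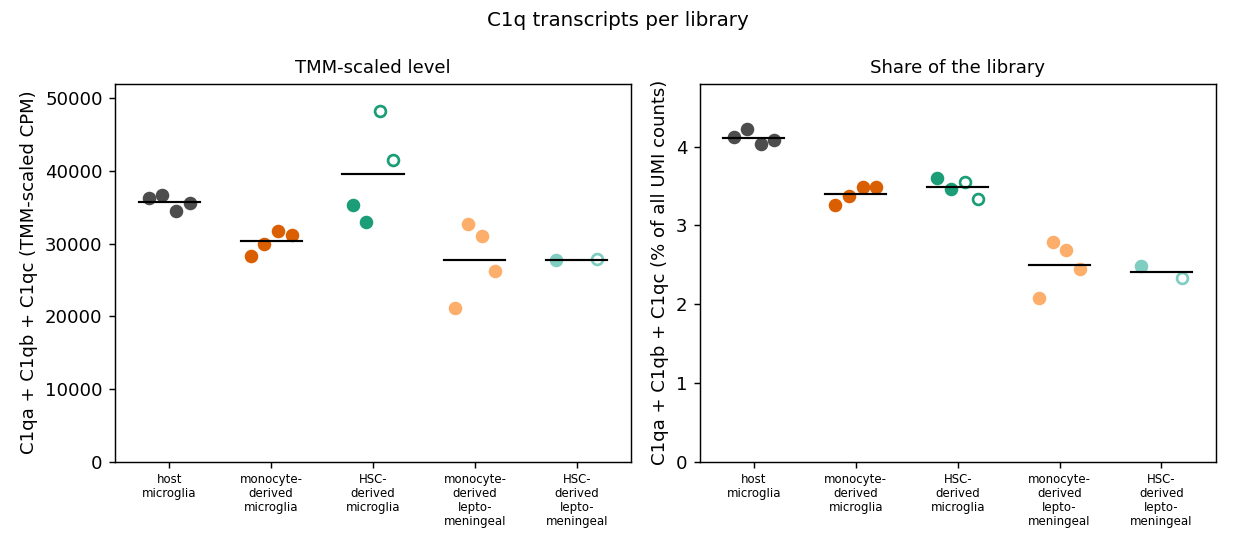
Summed C1qa, C1qb and C1qc per library in the 5 groups, as TMM-scaled CPM (left) and as a percentage of all UMI counts (right); bars are group means and open circles are libraries under 400000 counts. The order of host and HSC-derived microglia differs between the panels: the means are 35761 and 39514 CPM but 4.11% and 3.49% of counts.

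On the TMM scale, the summed C1q level was 35761 ± 926 CPM in host microglia, 30296 ± 1551 in monocyte-derived and 39514 ± 6801 in HSC-derived microglia (n = 4 each). It was 27734 ± 5178 (n = 4) and 27768 ± 64.1 (n = 2) in monocyte-derived and HSC-derived leptomeningeal macrophages. The plot of C1q per library shows that the 2 shallow HSC-derived microglia libraries, at 48174 and 41525 CPM, were the highest of all 18, while their shares of counts, 3.55% and 3.34%, lay within the range of the deeper donor-derived microglia. Apoe alone took 18.5% and 16.5% of counts in that pair, against 9.12% to 11.4% in the other donor-derived microglia. It took 4.66% to 6.68% in the leptomeningeal libraries and 0.35% to 0.41% in host microglia. Among monocyte-derived leptomeningeal libraries, the first had a low C1qb of 7958 CPM beside 16984, 14411 and 11403 in the others, while its C1qa of 8410 CPM lay nearer the 9848, 11079 and 9417 of the others.

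Donor-derived and host microglia were compared to ask how cells that entered the brain from marrow differ from resident cells of the same compartment. Both comparisons use the same 4 host libraries. In each, donor-derived microglia had more C3 and C3ar1 transcripts and fewer C5ar1 and Itgam transcripts. In neither did a C1q chain, C4b or Cfp pass the edgeR test, although some of them passed in alternatives given below. In such bulk samples, fewer cells of a type and less RNA per cell cannot be told apart. The share of all tested genes called was 30.2% for monocyte-derived against host microglia (15.1% higher, 15.1% lower), and 29.4% for HSC-derived against host microglia (16.3% higher, 13.1% lower). Beside these shares stand 4 of the 9 members in each comparison, 2 higher and 2 lower. The median log2 change of the members was -0.07 and 0.27, against 0.01 and 0.00 over all tested genes.

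Of the components, C3, the protein on which all complement pathways converge, was lowest in host microglia, at 12.9, 11.8, 10.2 and 14.7 CPM. It was at 23.6, 29.0, 24.5 and 30.3 CPM in monocyte-derived microglia and at 31.2, 31.6, 56.4 and 58.7 CPM in HSC-derived microglia. No donor-derived library overlapped the host range. The log2 change was 1.13 ± 0.22 (SE; 2.19-fold, adjusted p = 0.000141) for monocyte-derived and 1.68 ± 0.27 (3.20-fold, adjusted p = 5.76e-06) for HSC-derived cells. The C1q chains did not pass: log2 changes were -0.18 (C1qa), -0.36 (C1qb) and -0.07 (C1qc) in monocyte-derived microglia, with adjusted p = 0.478, 0.164 and 0.79. The C1qa and C1qb levels of the groups did not overlap there, with 9269 to 10362 and 12730 to 13854 CPM in the monocyte-derived libraries. C1qb was called lower there in a fit of both groups alone (-0.33, adjusted p = 0.0002) and with library totals (-0.40, adjusted p = 0.0262). In HSC-derived microglia the changes were 0.27, 0.01 and 0.21, and all 3 turn negative when libraries are scaled by their totals alone, to -0.12, -0.37 (adjusted p = 0.0336) and -0.15. That scaling moves the median of all tested genes in this comparison from 0.00 to -0.28. C4b had 20.8 ± 9.04 CPM in host microglia, 29.9 ± 6.86 in monocyte-derived and 47.8 ± 19.7 in HSC-derived microglia (n = 4 each), with adjusted p = 0.388 and 0.0949. Cfp had 9.92 ± 3.41, 14.7 ± 2.77 and 18.9 ± 10.7 CPM in the same groups, with adjusted p = 0.298 and 0.0941. In HSC-derived against host microglia, C4b and Cfp each passed in 4 of 15 alternatives. A fit of both groups alone gave 1.01 for C4b (adjusted p = 0.0301) and 1.07 for Cfp (adjusted p = 0.047). Without the 3 shallow libraries the Cfp change was 1.17 (adjusted p = 0.0127).

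Of the receptors, C5ar1, the receptor for C5a, fell most. Host libraries had 45.1, 44.6, 33.4 and 32.8 CPM, monocyte-derived microglia 7.49, 4.97, 7.01 and 11.2, and HSC-derived microglia 5.67, 4.12, 5.12 and 0. The highest donor-derived library was below the lowest host library. The HSC-derived values rest on 4, 3, 1 and 0 counts. C5ar1 fell by 2.33 ± 0.24 on the log2 scale in monocyte-derived microglia (5.01-fold, adjusted p = 1.41e-09) and by 3.17 ± 0.39 in HSC-derived microglia (8.97-fold, adjusted p = 6.16e-08). Itgam, whose protein CD11b is a common surface marker of these cells, had 1017, 911, 917 and 964 CPM in host microglia. It had 446, 452, 433 and 498 CPM in monocyte-derived and 462, 532, 441 and 387 CPM in HSC-derived microglia, far from the host range in every library. Itgam fell by 1.06 ± 0.15 (2.08-fold, adjusted p = 3.96e-07) and by 1.05 ± 0.15 (2.07-fold, adjusted p = 1.04e-06).

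C3ar1, the receptor for C3a, moved opposite to C5ar1. It was at 109, 108, 97.6 and 133 CPM in host microglia, at 210, 180, 217 and 196 in monocyte-derived microglia, and at 190, 212, 51.2 and 149 in HSC-derived microglia. Monocyte-derived libraries all lay above the host range, with a log2 change of 0.85 ± 0.18 (1.80-fold, adjusted p = 0.000315). HSC-derived microglia 3, a shallow library with 10 C3ar1 counts, lay below every host library. The HSC-derived change of 0.56 ± 0.19 (1.47-fold, adjusted p = 0.0286) was therefore the least certain of these calls. It was larger, at 0.85, without the 3 shallow libraries (adjusted p = 1.02e-05), but passed neither with library totals (0.27, adjusted p = 0.426) nor in a fit of both groups alone (0.62, adjusted p = 0.0618). Leaving out host library 1, 2 or 3, or HSC-derived library 1 or 2, also ended it (adjusted p = 0.06, 0.0683, 0.0921, 0.115 and 0.205).

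**Figure D2:**
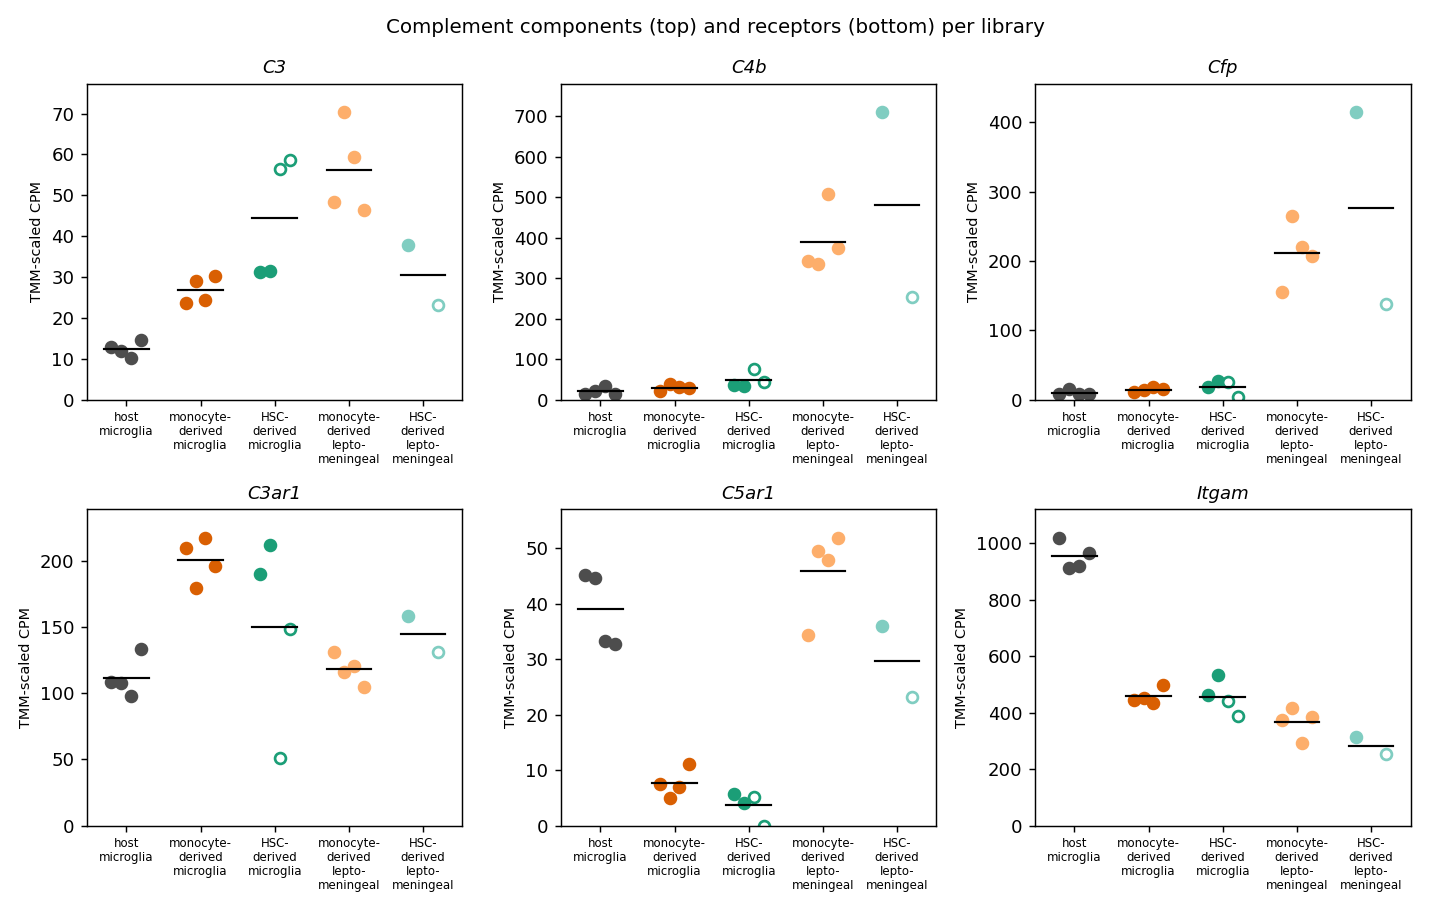
TMM-scaled CPM of C3, C4b and Cfp (top) and of C3ar1, C5ar1 and Itgam (bottom) in each of the 18 libraries; bars are group means and open circles are libraries under 400000 counts. Each axis starts at 0. C4b and Cfp stand highest in the leptomeningeal groups, at 254 to 709 and 139 to 414 CPM, and Itgam is highest in the 4 host libraries, at 911 to 1017 CPM.

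Markers of other cells also differed between these groups, though for some lists the HSC-derived range overlapped the host range. The 11 monocyte genes in the table summed to 18.8 to 20.8 CPM in host, 92.2 to 148 in monocyte-derived and 113 to 205 in HSC-derived microglia. The 8 neutrophil genes summed to 0 to 0.67, 11.5 to 55.1 and 0 to 20.5 CPM, with S100a8 and S100a9 at 0 in host microglia. In HSC-derived microglia S100a9 was at 0 as well, as were Retnlg, Mmp8, Camp and Ltf, and S100a8 had 1 count. The 11 T and NK cell genes summed to 28.6 to 54.2, 120 to 167 and 0 to 168 CPM, and the 8 dendritic cell genes to 7.37 to 15.7, 32.3 to 49.0 and 23.5 to 133 CPM. In the other direction, the 6 astrocyte genes in the table summed to 185 to 265, 29.4 to 32.3 and 23.4 to 118 CPM, with Slc1a3 alone at 187 CPM in host microglia and at 20.9 and 17.8 CPM in the donor-derived groups. The 6 choroid plexus epithelium genes summed to 2077 to 3523, 6.31 to 161 and 13.7 to 483 CPM. Their part in the members' differences was not tested.

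Monocyte-derived and HSC-derived cells were compared within each compartment to ask whether the Ms4a3-Cre label separates cells that differ. None of the 9 members passed the edgeR test in microglia, where 1.89% of all tested genes did (0.123% higher and 1.76% lower in monocyte-derived cells). None passed in leptomeningeal macrophages either, against 0.302% of all genes (0.16% higher, 0.142% lower). At an unadjusted p under 0.05 there were 2 in microglia, C1qa and C3, and 1 in leptomeningeal macrophages, C3. DESeq2 called 2 in microglia, C1qa and C1qc, and 0 in leptomeningeal macrophages. The median log2 difference of the members was -0.38 in microglia and -0.05 in leptomeningeal macrophages, against 0.02 and 0.07 over all tested genes.

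The intervals of these differences show how far the comparison reaches. Itgam, with 457 ± 28.4 and 455 ± 59.8 CPM in monocyte-derived and HSC-derived microglia, differed by -0.01 (95% interval -0.31 to 0.30), the narrowest interval of the 9. C5ar1, at 7.66 ± 2.59 and 3.73 ± 2.57 CPM, differed by 0.84 (-0.23 to 1.91), an interval that holds both 0 and large differences. C3 differed by -0.55 (-1.05 to -0.05) in microglia and by 0.68 (0.01 to 1.35) in leptomeningeal macrophages, with adjusted p = 0.264 and 0.449. The C1q chains differed by -0.46 (C1qa), -0.38 (C1qb) and -0.29 (C1qc) in microglia (adjusted p = 0.18, 0.348 and 0.41), and with library totals by -0.10, -0.03 and 0.04. That scaling raises the median of all tested genes there by 0.25. Between the leptomeningeal groups, Cfp was at 156, 265, 221 and 207 CPM in monocyte-derived libraries and at 414 and 139 CPM in HSC-derived libraries. The shallow library gave the 139, from 18 counts. Without the 3 shallow libraries the log2 difference of Cfp was -0.98, but only the deeper HSC-derived leptomeningeal library was then left. Over all alternatives this difference ranged from -0.98 to 0.70, so that its sign was not stable.

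Leptomeningeal macrophages and microglia of the same origin were compared to ask how the compartment bears on expression. In both origins, leptomeningeal cells had far more C4b and Cfp transcripts and more C5ar1. C1qc was called lower in both, close to the threshold. C3 was higher and C3ar1 lower in the monocyte-derived pair. Itgam was called lower in the HSC-derived pair alone, and in some alternatives in the monocyte-derived pair too. In the monocyte-derived comparison 6 of the 9 members passed, 4 higher and 2 lower, and 35.3% of all tested genes did (19% higher, 16.3% lower). In the HSC-derived comparison 5 passed, 3 higher and 2 lower, beside 9.72% of all tested genes (5.75% higher, 3.97% lower). The members' median log2 changes, -0.02 and -0.18, lay near those of all tested genes, -0.04 and -0.06.

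C4b and Cfp had the largest changes. C4b, which carries the classical pathway from C1 to C3, was at 21.3, 38.1, 30.8 and 29.5 CPM in monocyte-derived microglia and at 341, 335, 507 and 374 in monocyte-derived leptomeningeal macrophages. In HSC-derived cells it was at 36.8, 34.4, 76.9 and 43.1 CPM in microglia and at 709 and 254 in leptomeningeal macrophages. Every leptomeningeal library was above every microglia library. The log2 changes were 3.72 ± 0.31 (13.2-fold, adjusted p = 4.32e-08) and 3.63 ± 0.39 (12.4-fold, adjusted p = 7.79e-06). Its neighbour C4a stayed at or under 4.71 CPM as a group mean.

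Cfp encodes properdin, the stabiliser of the alternative convertase, which myeloid cells are known to secrete. It was at 11.5, 14.1, 18.2 and 15.2 CPM in monocyte-derived microglia against 156, 265, 221 and 207 in the leptomeningeal libraries of that origin. In HSC-derived cells it was at 18.4, 27.5, 25.6 and 3.91 CPM against 414 and 139. In neither origin did the groups overlap, and the log2 changes were 3.84 ± 0.28 (14.3-fold, adjusted p = 2.76e-10) and 3.94 ± 0.37 (15.3-fold, adjusted p = 1.61e-07). Without the deeper HSC-derived leptomeningeal library, the changes in that origin were 2.51 for C4b (adjusted p = 0.00467) and 2.67 for Cfp (adjusted p = 0.00302).

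C5ar1, at 39.0 ± 6.79 CPM in host microglia, rose from microglia to leptomeningeal cells in both origins. It was at 34.4, 49.4, 47.8 and 51.8 CPM in monocyte-derived leptomeningeal macrophages, above every monocyte-derived microglia library (4.97 to 11.2 CPM), and at 36.1 and 23.1 CPM in the HSC-derived ones. The log2 changes were 2.56 ± 0.25 (5.91-fold, adjusted p = 3.56e-10) and 2.94 ± 0.55 (7.69-fold, adjusted p = 0.000274). The latter fell to 2.34 without the deeper HSC-derived leptomeningeal library and then did not pass (adjusted p = 0.24). C3 was at 48.5, 70.3, 59.3 and 46.4 CPM in monocyte-derived leptomeningeal macrophages, the highest group mean for this gene, a log2 change of 1.05 ± 0.19 (adjusted p = 4.03e-05). In HSC-derived leptomeningeal macrophages it was at 37.8 and 23.1 CPM, the latter from 3 counts, with a log2 change of -0.18 (adjusted p = 0.911).

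C3ar1 fell by 0.76 ± 0.18 in the monocyte-derived pair (adjusted p = 0.00103), to 131, 116, 121 and 105 CPM, and lay at 158 and 131 CPM in HSC-derived leptomeningeal macrophages, a log2 change of -0.13 (adjusted p = 0.849). Itgam was at 374, 415, 293 and 383 CPM and at 313 and 254 CPM, the lowest levels of the 5 groups. Its change passed the test in the HSC-derived pair, where it fell by 0.66 ± 0.20 (adjusted p = 0.0333). It missed the test in the monocyte-derived pair with a log2 change of -0.32 ± 0.15 (adjusted p = 0.0852). In the monocyte-derived pair it passed in 4 of 15 alternatives, among them library totals and DESeq2's Wald test. Without the 3 shallow libraries the change there was -0.33 (adjusted p = 0.0115). The HSC-derived call was lost in a fit of both groups alone (adjusted p = 0.318) and without HSC-derived microglia 1 or 2 or either leptomeningeal library (adjusted p = 0.0523, 0.0946, 0.074 and 0.216).

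C1qc, the least abundant chain, was the only one called lower in leptomeningeal cells on the TMM scale. It had 4781, 5807, 5490 and 5348 CPM in the monocyte-derived and 6076 and 5322 CPM in the HSC-derived leptomeningeal libraries, against 6281 to 7726 and 8195 to 10273 CPM in the matching microglia. It fell by 0.43 ± 0.16 (adjusted p = 0.0363) and by 0.63 ± 0.21 (adjusted p = 0.0469). Both calls were close to the threshold. The former was lost in 6 of 15 alternatives, without monocyte-derived microglia 2, 3 or 4 or leptomeningeal 1, 3 or 4 (adjusted p = 0.059 to 0.0902). The latter was lost in 8 of 13. It was lost without HSC-derived microglia 1 or 3 or either leptomeningeal library (adjusted p = 0.0552 to 0.288), without the 3 shallow libraries (0.113), with DESeq2's size factors (0.0652), in a fit of both groups alone (0.518) and with the replicate number as a block (0.0705). With library totals, which lower the median of all tested genes by 0.30 in the monocyte-derived pair, all 3 chains and Itgam were called lower there, with log2 changes of -0.34 (C1qa), -0.38 (C1qb), -0.74 (C1qc) and -0.62 (Itgam). Under that scaling 1317 genes were called higher and 3335 lower, in place of 2012 and 1724. In the HSC-derived pair library totals shifted the median by -0.09, and C1qb was called lower there (-0.54, adjusted p = 0.0413). C1qc and Itgam stayed called in that pair, and C1qa was not called (-0.44, adjusted p = 0.0508).

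Several lists of other cells' markers had higher sums in the leptomeningeal groups, though in the HSC-derived pair the ranges of some lists overlapped. The 8 neutrophil genes summed to 1222 to 2874 CPM in monocyte-derived and 100 to 280 CPM in HSC-derived leptomeningeal macrophages. S100a8 and S100a9 were at 393 and 883 CPM in the former. In the latter they were at 4.71 and 11.6 CPM and Mmp8, Camp, Ltf and Ngp were at 0, while Mmp9 was at 137 CPM in the former and 173 CPM in the latter. Monocyte genes (11 in the table) summed to 1142 to 1398 and 401 to 1125 CPM, dendritic cell genes (8) to 268 to 357 and 208 to 538 CPM, and T and NK cell genes (11) to 474 to 946 and 254 to 538 CPM. B cell genes (5) summed to 660 to 1298 CPM in the monocyte-derived leptomeningeal libraries, against 447 to 501 CPM in microglia of that origin, with Igkc at 389 and 6.57 CPM. In HSC-derived cells they summed to 471 to 624 CPM against 434 to 507 CPM, with Ms4a1 at 0 in both compartments. Oligodendrocyte genes (6) summed to 159 to 194 against 92.2 to 104 CPM in monocyte-derived cells and 235 to 408 against 93.5 to 329 CPM in HSC-derived cells, and astrocyte genes (6) to 57.9 to 83.5 and 79.0 to 231 CPM in the leptomeningeal groups. Fibroblast and mural cell genes (4) summed to 65.3 to 94.9 and 75.6 to 139 CPM, against 0 to 0.70 in monocyte-derived and 5.50 to 51.2 CPM in HSC-derived microglia. Endothelial genes (6) summed to 17.2 to 25.3 against 13.3 to 17.6 CPM in monocyte-derived cells. In HSC-derived cells they summed to 0 to 8.59 against 3.91 to 41.0 CPM. The part of any of these cells, neutrophils included, in the members' differences was not tested.

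**Figure D3:**
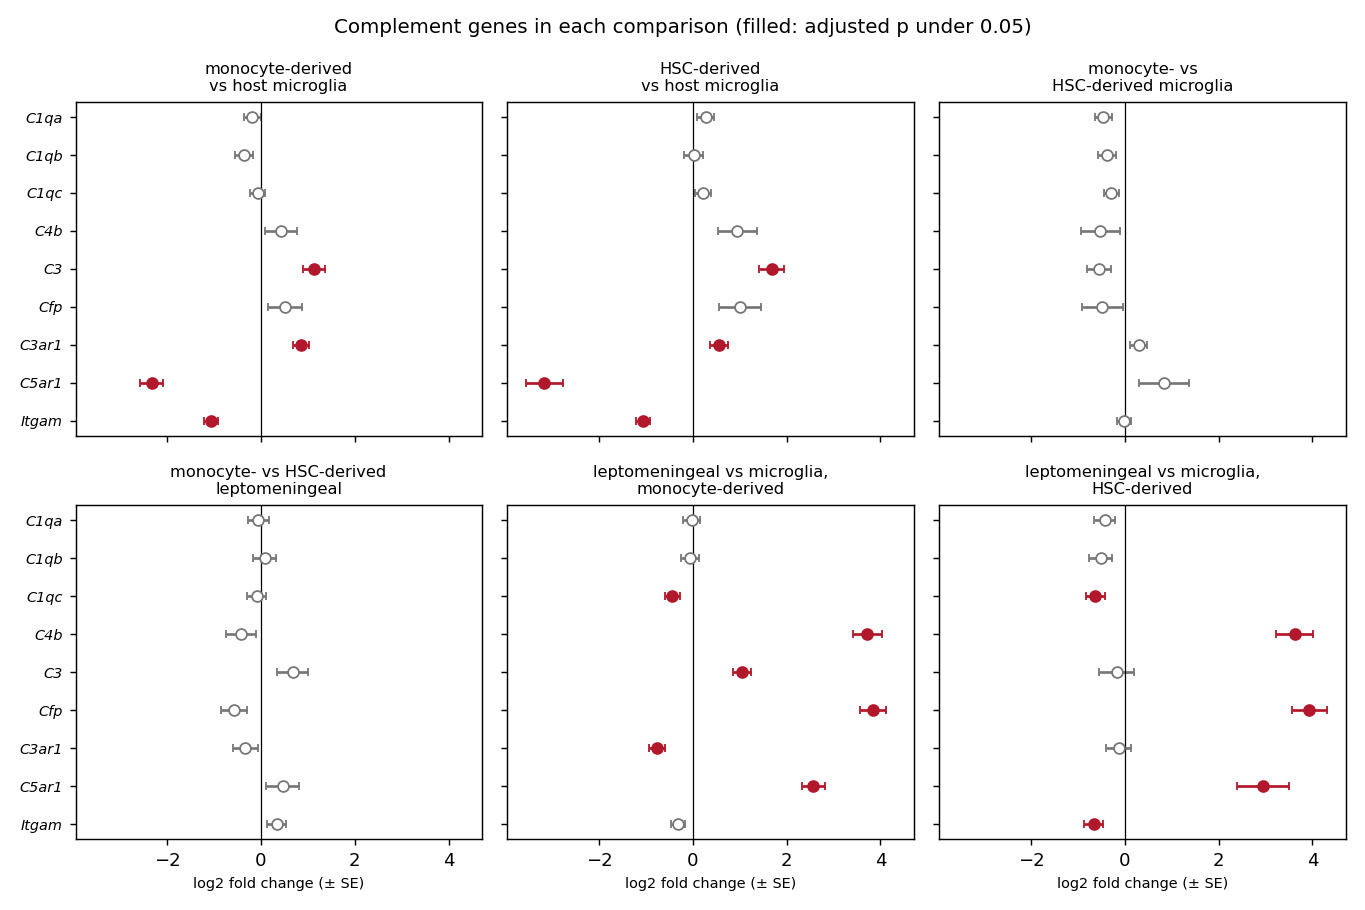
Log2 fold change (± SE) of each member in 6 comparisons, with filled red points for an adjusted p under 0.05. C4b, Cfp and C5ar1 lie right of 0 in both leptomeningeal against microglia panels, and no point is filled in either panel of monocyte-derived against HSC-derived cells.

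Whether the step from microglia to leptomeningeal macrophages differed between origins was tested as an interaction, the monocyte-derived change minus the HSC-derived one. None of the 9 members passed, against 0.0566% of all tested genes (0.0566% higher, 0% lower). At an unadjusted p under 0.05 there was 1, C3, with 1.23 ± 0.41 (95% interval 0.39 to 2.06, adjusted p = 0.414), and DESeq2 called 0. For C4b the interaction was 0.09 (-1.01 to 1.19) and for Cfp -0.10 (-1.16 to 0.97). The members' median was 0.20 and that of all tested genes 0.10. That C3, C3ar1 and Itgam passed in 1 origin and not in the other is thus not shown to be a difference between origins.

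The rest of the complement system was read from 50 other genes, of which 25 were in the table and 19 were tested. None of the 7 terminal pathway genes listed, nor the factors B and D, was in the table, so their levels cannot be given. Of the 19, 9 passed in monocyte-derived against host microglia (4 higher, 5 lower), beside 30.2% of all tested genes, and 8 in HSC-derived against host microglia (2 higher, 6 lower), beside 29.4%. In leptomeningeal macrophages against microglia 15 passed for monocyte-derived cells (11 higher, 4 lower), beside 35.3%, and 6 for HSC-derived cells (5 higher, 1 lower), beside 9.72%. Several of these genes were nearly absent from microglia: Serping1, Fcna, Vtn, Colec12 and Cd55 had 1, 2, 3, 3 and 5 counts in all monocyte-derived microglia against 68, 387, 194, 49 and 85 in the leptomeningeal libraries. Such genes passed the low-count filter through the leptomeningeal libraries and could hardly be called lower there. Both the number called and its split into higher and lower therefore describe the genes tested and not the pathway. No gene of the 19 passed between origins or in the interaction.

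Among receptors and their partners, Itgb2, which encodes CD18, the partner chain of CD11b, fell beside Itgam. It was at 618 ± 68.4 CPM in host, 294 ± 13.6 in monocyte-derived and 286 ± 73.0 in HSC-derived microglia (n = 4 each), a log2 change of -1.07 and -1.12 (adjusted p = 9.44e-07 and 1.50e-06). Cd93, a surface glycoprotein once described as a C1q receptor, had 5 counts in all 4 host libraries (0.65 CPM) and reached 125 ± 10.8 and 74.5 ± 33.3 CPM in donor-derived microglia, then 202 ± 32.2 and 214 ± 62.4 CPM in the leptomeningeal groups. C5ar2, the other C5a receptor, rose by 0.85 in monocyte-derived microglia (adjusted p = 0.0112), where C5ar1 fell. It fell by 1.03 in the leptomeningeal cells of that origin (adjusted p = 0.00354), where C5ar1 rose, although 1 leptomeningeal library, at 59.0 CPM, lay within the microglia range of 56.8 to 70.2. In HSC-derived cells C5ar2 was not called against host microglia (0.57, adjusted p = 0.181) or between compartments (-0.77, adjusted p = 0.435). Itgax, the alpha chain of complement receptor CR4, rose by 1.22 in monocyte-derived leptomeningeal cells (adjusted p = 0.000197). It was lower in monocyte-derived than in host microglia (-0.74, adjusted p = 0.0203), and not called in the HSC-derived leptomeningeal comparison (0.39, adjusted p = 0.665). Lrp1 and Calr, which form a docking complex for C1q-tagged cells, were at 798 ± 78.0 and 896 ± 48.7 CPM in host microglia. Lrp1 fell by 0.54 and 0.66 in both donor-derived microglia, and by a further 0.68 and 0.97 in leptomeningeal cells. Calr fell by 0.50 in HSC-derived microglia (adjusted p = 0.00937) and missed the threshold in monocyte-derived microglia (-0.36, adjusted p = 0.0547).

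Regulators and lectin pathway genes came next. Clu, which encodes clusterin, fell from 33.5 CPM in host microglia by 4.34 and 2.27 (adjusted p = 5.20e-07 and 0.00253). Astrocytes and choroid plexus epithelium are also known to make clusterin. The choroid plexus epithelium genes were highest in the same host libraries, as given above. The astrocyte sum holds Clu itself, and of its other genes Slc1a3 was higher in host microglia, while Aldoc was lower there, at 3.80 CPM against 4.82 and 21.7 CPM. The part of these cells in the Clu difference was not tested. Vtn, vitronectin, an inhibitor of the membrane attack complex, had 3 counts in all monocyte-derived and 1 in all HSC-derived microglia against 194 and 26 in the leptomeningeal libraries, ratios of 67.5 (95% exact interval 22.8 to 330) and 68.8 (11.3 to 2821). Fcna, ficolin A of the lectin pathway, had 2 counts against 387 in the monocyte-derived pair, a ratio of 202 (55.5 to 1674), and rose from 3.01 to 73.8 CPM in the HSC-derived pair (adjusted p = 0.000171). These intervals cover counting error only. Fibroblast and mural cell genes, among other lists, were also higher in the leptomeningeal groups, as given above. The part of such cells in the differences of these and the other listed complement genes was not tested. C1ra, the mouse C1r protease, chosen after its values were seen, was at 2.71 CPM in host microglia and rose to 16.3 and 17.4 CPM in donor-derived microglia (adjusted p = 1.03e-05 and 0.00395). The HSC-derived mean rests on the shallow pair, at 25.6 and 31.3 CPM from 5 and 8 counts. The deeper HSC-derived microglia libraries had 5.67 and 6.87 CPM, below the monocyte-derived range of 9.81 to 21.5 CPM.

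**Figure D4:**
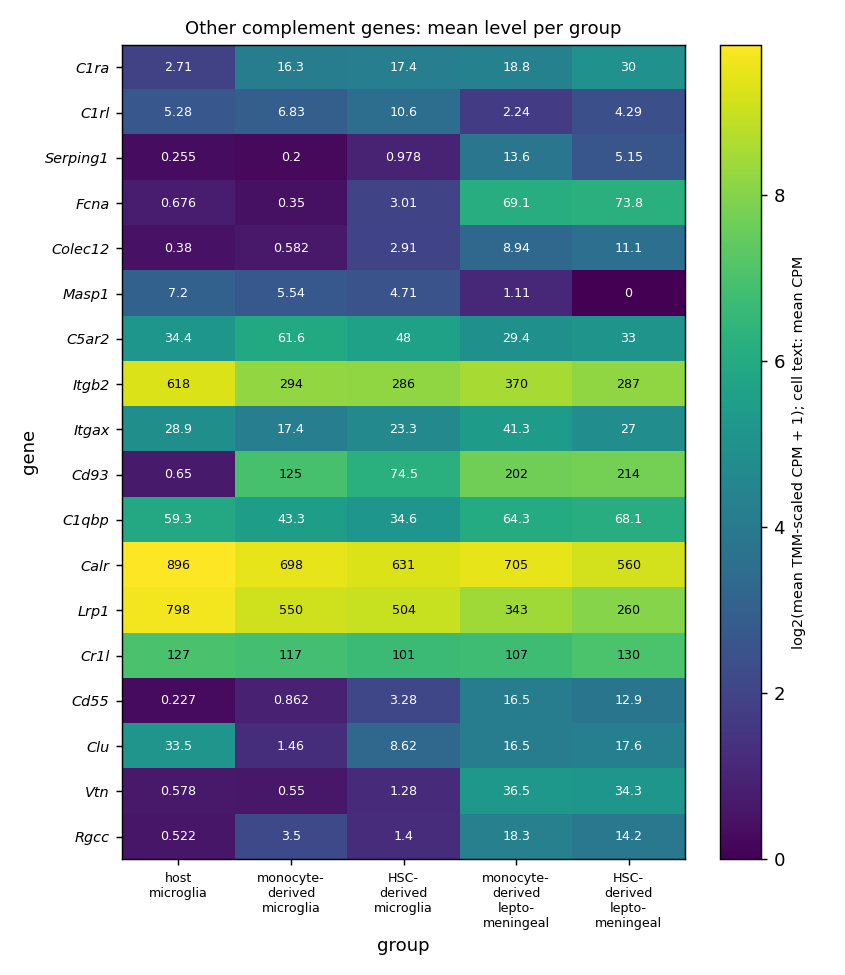
Mean TMM-scaled CPM of 18 of the 19 other tested complement genes in the 5 groups; colour is log2(mean CPM + 1) and the number in each cell is the mean. Cd93 goes from 0.65 CPM in host microglia to 214 in HSC-derived leptomeningeal macrophages, and Itgb2 is highest in host microglia, at 618 CPM.

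The genes whose levels followed each member most closely were found by Pearson correlation of log2 CPM over the 18 libraries, as a description; the libraries share groups, depth and composition. For the mean of the C1q chains they were Ly86 (r = 0.89), Ctss (0.89) and Tmem50a (0.88). For C4b they were Cd209f, Pabpc1 and Mmp9 (each 0.98), and for Cfp Mmp9, Tubb2a and Ccl2 (each 0.97). Cd209f, a lectin of border macrophages, was at 0 CPM in host microglia and at 234 and 432 CPM in the leptomeningeal groups. For Itgam they were Cd9 (0.98), Selplg (0.97) and Chst7 (0.97), all highest in host microglia. Selplg, the P-selectin ligand, went from 5796 CPM in host microglia to 1004 and 895 in donor-derived microglia. For C3 they were Acp5 (0.92), Tuba4a (0.91) and Nt5c3 (0.90), for C3ar1 Naa16 (0.94), Gapvd1 (0.91) and Ssh3 (0.90), and for C5ar1 Myd88, Mob3a and Opa3 (each 0.91). Among the members themselves, C4b and Cfp followed each other at r = 0.95, and the C1q chains at 0.73 to 0.77. C4b and Itgam ran opposite (r = -0.75), as did C3 and Itgam (r = -0.76).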

How the data were processed

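Bulk MARS-seq, a 3′ RNA-seq method with unique molecular identifiers (UMIs), was run on sorted cells lysed for oligo(dT) capture, with actinomycin D during preparation, per the labels' protocols. The deposited table holds raw UMI counts by gene, whole and not normalized by the authors; its scaled and log-transformed columns were not used, and 2 of its 20 count columns matched no described sample and were left out. The build is mm10, per the submitters' processing notes; for the aligner, the counting program and the strand setting nothing is given in these sources.

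Counts as deposited were filtered with filterByExpr, scaled by TMM and fitted with edgeR 4.0.16 (R 4.3.3, limma 3.58.1) in 1 robust quasi-likelihood model of all 18 libraries with a coefficient per group and no replicate block. Adjusted p-values are two-sided quasi-likelihood tests with Benjamini-Hochberg adjustment over 10597 genes, called at 0.05, and SE and 95% intervals come from the same fit. The biological coefficient of variation common to all genes was 0.16. The method was run on simulated counts with known changes, drawn with the same spread for every gene. These simulations were simpler than the data, and no call here rests on them. Counts of 3 or fewer in a group were compared as ratios with exact (Clopper-Pearson) intervals. No 2 libraries of a group agreed within sampling noise (lowest chi-square per degree of freedom 1.39).

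The members, the gene lists and the comparisons were chosen with earlier results of these data known. All members were named; of the other complement genes, up to 6 per comparison with the smallest p among those called at 20 CPM or more in the higher group; and per member the 3 tested genes with the highest correlation among those of at least 20 CPM on average, without predicted, pseudo- and ribosomal protein genes. 1 gene that the rule named is not reported here. Alternatives were DESeq2 1.42.0 (size factors and Wald test), library totals, no filter, only the groups compared, the replicate block, no library under 400000 counts, and leaving out each library in turn.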

Additional observations from a re-analysis of the deposited data

Results flagged for a closer look

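Each member was examined in the 4 groups of 4 libraries, 36 groups in all, for a library whose distance from its nearest neighbour took up most of the group's range on the log2 scale (past Dixon's 95% critical value). Chance flags about 1 in 20 groups, and 3 were found. C1qc in host microglia 2 was at 7981 CPM, above the 7457 to 7504 CPM of the other host libraries. Cfp in host microglia 2 was at 15.0 CPM, above 7.87 to 8.78 CPM in the others. C5ar1 in HSC-derived microglia 4 was at 0 CPM, below 4.12 to 5.67 CPM in the others; in this shallow library a count of 3 corresponds to 11.7 CPM, so that the level was not detectable at this depth.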

How the results depend on the processing

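Over all members, comparisons and alternatives, 246 of 274 called changes stayed called and 659 of 681 uncalled ones stayed uncalled; 41 uncalled ones turned sign. The calls of C3, C5ar1 and Itgam in both donor-derived against host comparisons, of C3ar1 in the monocyte-derived one, and of C4b and Cfp in both leptomeningeal ones passed in every alternative that tested them. With library totals, the C1qb change in HSC-derived against host microglia was -0.37; 124 genes were called between microglia of both origins and 1 in the interaction. Between those microglia, calls were 58 higher and 66 lower (13 and 187 with TMM), and in HSC-derived against host microglia 1192 higher and 2546 lower (1723 and 1391 with TMM). Without the 3 shallow libraries, 50 genes were called between microglia of both origins. Between leptomeningeal groups only the deeper HSC-derived library was then left, and Cfp differed by -0.98. With only the groups compared, counts were 2068 genes for HSC-derived against host microglia, 20 and 16 between origins in microglia and leptomeninges, 205 genes and 2 members for HSC-derived leptomeningeal macrophages against microglia, and 1 in the interaction. DESeq2's Wald test called 7 members in HSC-derived against host microglia: C1qc, C3, C3ar1, C5ar1, C4b, Cfp and Itgam. It called 2 members and 552 genes between microglia of both origins, 72 genes between leptomeningeal groups and 49 in the interaction. Leaving out 1 library gave 2587 to 2864 genes for monocyte-derived against host (4 members each time), 2612 to 2902 for HSC-derived against host (3 to 4 members), and 31 to 555 between microglia of both origins and 12 to 90 between leptomeningeal groups (0 members in both). It gave 3137 to 3751 genes (5 to 6 members) and 366 to 1242 genes (2 to 5 members) for monocyte-derived and HSC-derived leptomeningeal macrophages against microglia, and 0 to 40 genes and 0 members in the interaction. Cd55, called higher in HSC-derived leptomeningeal macrophages (3.04), ranged from -4.50 to 4.78 without 1 library, turning where the shallow one with 0 counts was left alone. The causes of these changes were not tested. A replicate block was no pairing by the design: of 32 pairs of same-numbered libraries 1 had deviations correlated above 0.1 (median 0.00). Among members, with the replicate block C4b in HSC-derived against host microglia passed (1.07, adjusted p = 0.0182) and C3ar1 did not (0.52, adjusted p = 0.0577), nor did C1qc (-0.59, adjusted p = 0.0705) in HSC-derived leptomeningeal macrophages against microglia. Single counts in the shallow libraries are worth 3.91 to 7.70 CPM, and C3, C3ar1, C5ar1, C4b and Cfp had 0 to 38 counts there.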
